A study of Drosophila melanogaster with 2 samples.

Results

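The 9 heat shock protein genes described here were followed through peaks of chromatin immunoprecipitation sequencing (ChIP-seq) of Rfx-eGFP, a fusion of the fly RFX transcription factor to a green fluorescent protein, in whole Drosophila melanogaster embryos. They are 6 genes of small heat shock proteins (Hsp22, Hsp23, Hsp26, Hsp27, Hsp67Ba and Hsp67Bc) and 3 of large ones (Hsp68, Hsp83 and Hsp60A), out of 13968 protein-coding genes of the annotation. A peak was counted to a gene when its summit lay inside the gene or within 1 kb of any of its transcription start sites (TSS). The series held 1 group, 2 biological replicates of embryos 0 to 24 h old of the strain Rfx-GFP, whose insertion targets Rfx, with the antibody directed at GFP, so that no condition was contrasted. Whole embryos over this range of ages were used, so a peak cannot be placed in a cell type or a stage.

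Heat shock proteins are chaperones, which keep other proteins folded or hold unfolded ones until they can be refolded. Many of their genes are switched on by heat through heat shock factor, which binds heat shock elements, inverted repeats of a short unit placed before the gene. Several fly heat shock promoters are also known for an open chromatin state before any heat, with GAGA factor bound to GA repeats, a TATA box and a paused RNA polymerase. RFX factors are best known for switching on genes for building cilia through a palindromic site called the X-box.

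The DNA before 6 of the members with a peak is shown because their summits fell in it, and because the short elements counted further on can be read in it. Each of these is the 200 bases before a TSS in the direction of the gene, 5′ to 3′, from the RefSeq genome of the dm6 build. For Hsp27 (chr3L:9383863-9384062, plus strand) the capitals mark 2 copies of the X-box arm GGCAAC, read on either strand. For Hsp23 (chr3L:9381682-9381881, plus strand), Hsp26 (chr3L:9377428-9377627, minus strand), Hsp67Bc (chr3L:9372498-9372697, minus strand) and Hsp68 (chr3R:24057311-24057510, minus strand) they mark heat shock elements of 2 units, GAANNTTC or TTCNNGAA. For Hsp60A (chrX:11108282-11108481, plus strand) they mark CGATA on either strand, the letters bound by the insulator protein BEAF-32. Of Hsp22 (chr3L:9373899-9373928, plus strand) and Hsp83 (chr3L:3193137-3193166, plus strand) 30 bases around the heat shock element nearest to the inner TSS are shown.
Hsp27: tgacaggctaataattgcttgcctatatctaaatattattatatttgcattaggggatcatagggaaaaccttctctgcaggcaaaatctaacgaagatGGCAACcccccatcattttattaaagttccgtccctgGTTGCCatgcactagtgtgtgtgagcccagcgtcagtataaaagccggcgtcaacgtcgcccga
Hsp23: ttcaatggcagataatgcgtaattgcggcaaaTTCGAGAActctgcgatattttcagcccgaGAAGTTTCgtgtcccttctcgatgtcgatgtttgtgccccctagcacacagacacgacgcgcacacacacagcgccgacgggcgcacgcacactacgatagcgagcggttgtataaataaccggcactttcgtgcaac
Hsp26: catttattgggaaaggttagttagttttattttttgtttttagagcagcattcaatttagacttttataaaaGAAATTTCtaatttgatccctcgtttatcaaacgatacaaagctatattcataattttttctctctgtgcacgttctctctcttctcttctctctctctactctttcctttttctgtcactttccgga
Hsp67Bc: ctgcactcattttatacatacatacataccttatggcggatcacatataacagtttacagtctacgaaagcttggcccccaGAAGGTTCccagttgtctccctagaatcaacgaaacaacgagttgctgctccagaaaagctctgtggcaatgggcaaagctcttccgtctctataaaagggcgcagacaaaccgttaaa
Hsp68: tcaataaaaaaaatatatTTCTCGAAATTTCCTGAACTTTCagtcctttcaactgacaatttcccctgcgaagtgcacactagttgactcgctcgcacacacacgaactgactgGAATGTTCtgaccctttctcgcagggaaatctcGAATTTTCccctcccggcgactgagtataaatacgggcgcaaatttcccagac
Hsp60A: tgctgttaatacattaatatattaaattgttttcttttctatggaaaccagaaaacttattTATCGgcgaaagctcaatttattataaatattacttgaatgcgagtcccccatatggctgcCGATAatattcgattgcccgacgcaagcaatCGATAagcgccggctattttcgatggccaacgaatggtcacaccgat
Hsp22: caaagggcgaaGAAAATTCgagagagtgcc
Hsp83: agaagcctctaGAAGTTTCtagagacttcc

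Rfx-eGFP peaks were listed at 8 of the 9 heat shock protein genes, 5 of the 6 small and 3 of the 3 large ones; Hsp67Ba was the exception. They came from the main set, the authors' thresholded peaks called from both replicates together. In it 43.0% of all protein-coding genes had a peak by the same rule (95% Wilson interval 42.2 to 43.8%). A main-set peak need not be listed in each replicate. Of all 9247, 8503 had a value in replicate 1 and 8892 in replicate 2. The 8 genes held 10 distinct peaks, 5 at small and 5 at large genes, since Hsp22 and Hsp67Bc share 1 and Hsp22, Hsp68 and Hsp83 have 2 each. Of the 10 summits, 7, at 7 different members, were within 200 bp upstream of a member's TSS. The Hsp83 summit among them lay inside the gene, before its inner TSS. The share of all main-set peaks with such a position is not given here. Signal, the caller's value for a peak on a scale not stated, ranged 22.8-fold, from 71.0 before Hsp67Bc to 1621 before Hsp27. Of the 10 peaks, 7 were above the median of the main set (119.5) and 3 in its top 10%.

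Fewer members had a peak in the smaller lists. The conservative set, a stricter list of the authors, held peaks at 6 members (36.8% of all genes), without Hsp23 and Hsp67Bc. The thresholded set of replicate 1 held peaks at 5 members (35.3% of all genes), with Hsp68 missing as well, and that of replicate 2 at 7 (36.5% of all genes), without Hsp67Bc. Hsp22, Hsp26, Hsp27, Hsp83 and Hsp60A had a peak in both replicates' sets. The share of all genes with a peak in both is not given here. In the ranked list behind the main set, all 9 members had a peak, but so did 84.4% of all genes. That list holds peaks of any irreproducible discovery rate (IDR), which is low where a peak ranks high and alike in the compared lists. Of the 28 ranked peaks at the members, 10 were thus in the main set.

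The lists hold 9247 main-set peaks on the 7 chromosome arms and 6290 and 6953 in the sets of replicates 1 and 2. They give no read counts, so the depth behind each value is unknown, and signals were compared within a list only, as percentiles among main-set peaks. For each replicate, the percentile uses the signal its own ranked list gives at the main-set summit.

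**Figure D1:**
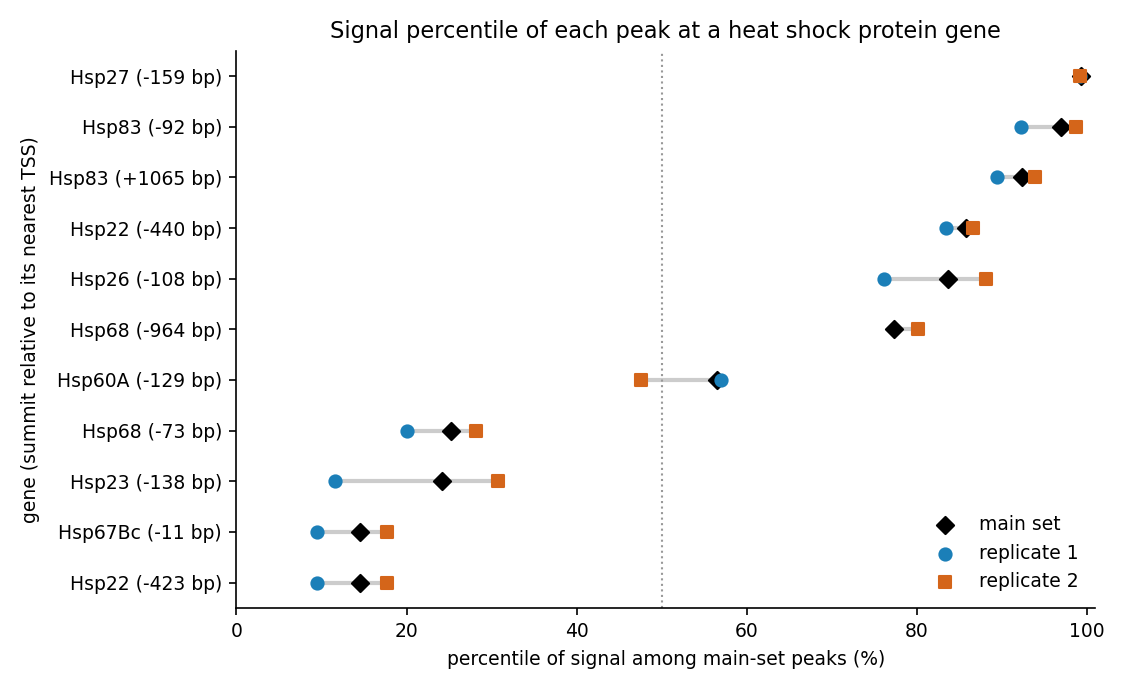
Percentile of signal among main-set peaks (horizontal axis, %) of each peak at a heat shock protein gene (rows, with the summit's distance from the nearest TSS of that gene), in the main set and in each replicate; grey lines join the values of 1 peak, the dotted line is the median, and the peak between Hsp22 and Hsp67Bc has a row under each. The Hsp27 peak is at 99.3% in the main set, and 3 peaks lie below 26% in it, 1 each before Hsp23, Hsp68 and Hsp67Bc.

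Hsp27, a small heat shock protein found in the nucleus, had the strongest peak of the family. Its signal of 1621 ranked 70 in the main set (percentile 99.3), and the replicates' lists gave 993 and 631, at percentile 99.2 in either. The summit lay 159 bp before the TSS in intergenic DNA (chr3L:9383747-9384061), and the replicates' summits were 8 bp apart. Among the 6003 genes with a main-set peak, ranked by their strongest one, Hsp27 stood at percentile 98.4. The nearest TSS of another gene, that of Hsp23, was 2022 bp away.

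Hsp22, a small chaperone of mitochondria, came next among the small genes, with a signal of 325 (percentile 85.7). The replicates gave 186 and 147, a percentile of 85.0 ± 2.27 (SD, n = 2), and summits 8 bp apart. This summit (chr3L:9373484-9373637) was 440 bp before the inner of the gene's 2 TSS, so it lay inside transcripts: in the 5′ UTR of the longer Hsp22 transcript and in the 3′ UTR of CG4456. CG4456 also starts at the outer Hsp22 TSS, 626 bp upstream of the summit, which was the nearest TSS of another gene. The peak therefore counts to CG4456 as well.

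Hsp26, a cytosolic small heat shock protein, had a peak of nearly the same signal, 297 (percentile 83.6), and the replicates gave 141 and 158, a percentile of 82.2 ± 8.45 (SD, n = 2). Its summit lay 108 bp before the outer TSS in intergenic DNA (chr3L:9377452-9377623), and the replicates placed it 2 bp apart. The nearest other TSS, of the non-coding asRNA:CR43481, was 625 bp away. Replicate 1 placed Hsp22 above Hsp26 (percentiles 83.4 and 76.2) and replicate 2 placed it below (86.6 and 88.1), so their order is not resolved.

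Hsp23, another cytosolic small heat shock protein, had a weak peak 138 bp before its TSS (chr3L:9381572-9381915). Its signal was 81.0 (percentile 24.2), and 30.9 and 45.8 in the replicates, a percentile of 21.1 ± 13.6 (SD, n = 2) with summits 31 bp apart. Replicate 2 listed it under the IDR threshold of 0.01, at 0.00731, and replicate 1 above it, at 0.0211. The nearest other TSS, again of asRNA:CR43481, was 1385 bp off.

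Hsp67Bc, a cytosolic small chaperone with a known part in autophagy, had the weakest peak of the family, 71.0 (percentile 14.6). Its summit lay 11 bp before the TSS (chr3L:9372336-9372679), and 423 bp before the outer Hsp22 TSS, with the outermost TSS of CG4456 214 bp away on the other side. The replicates gave 29.4 and 37.2, a percentile of 13.6 ± 5.85 (SD, n = 2), with summits 109 bp apart. Neither replicate's thresholded set held it (IDR 0.249 and 0.0212), nor did the conservative set. Each replicate placed it below Hsp23, but the ranges of percentile over the replicates overlap, 9.48 to 17.8 here and 11.6 to 30.7 at Hsp23.

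Hsp67Ba, also named for its place in the small heat shock gene cluster, had no main-set peak. The ranked list held 2 peaks inside the gene, the higher with a signal of 39.3 and an IDR of 0.0931. Replicate 1 listed 1 peak, of 34.2 at an IDR of 0.195. Replicate 2 listed 3, none above 9.14 and all at an IDR of 0.801. The nearest main-set summit, that of the Hsp26 peak, was 1999 bp from its TSS and 267 bp past the end of the gene.

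The 6 small genes lie within 14.2 kb of chromosome 3L (chr3L:9371511-9385694), which holds 10 genes, 8 of them protein-coding. Main-set summits numbered 5 in this span and all are counted to small heat shock protein genes; 1 more within 1 kb of it was at Fdx1, a mitochondrial ferredoxin gene, 17 bp from its TSS (signal 176). CG4461, another gene of the cluster that is itself on the wider heat shock and chaperone list, had none. Because these genes adjoin each other, their peaks are not independent of the locus they share. Just outside the rule, the Hsp22 peak was 1060 bp from the Hsp67Bc TSS and the Hsp27 peak 1139 bp past the end of Hsp23.

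**Figure D2:**
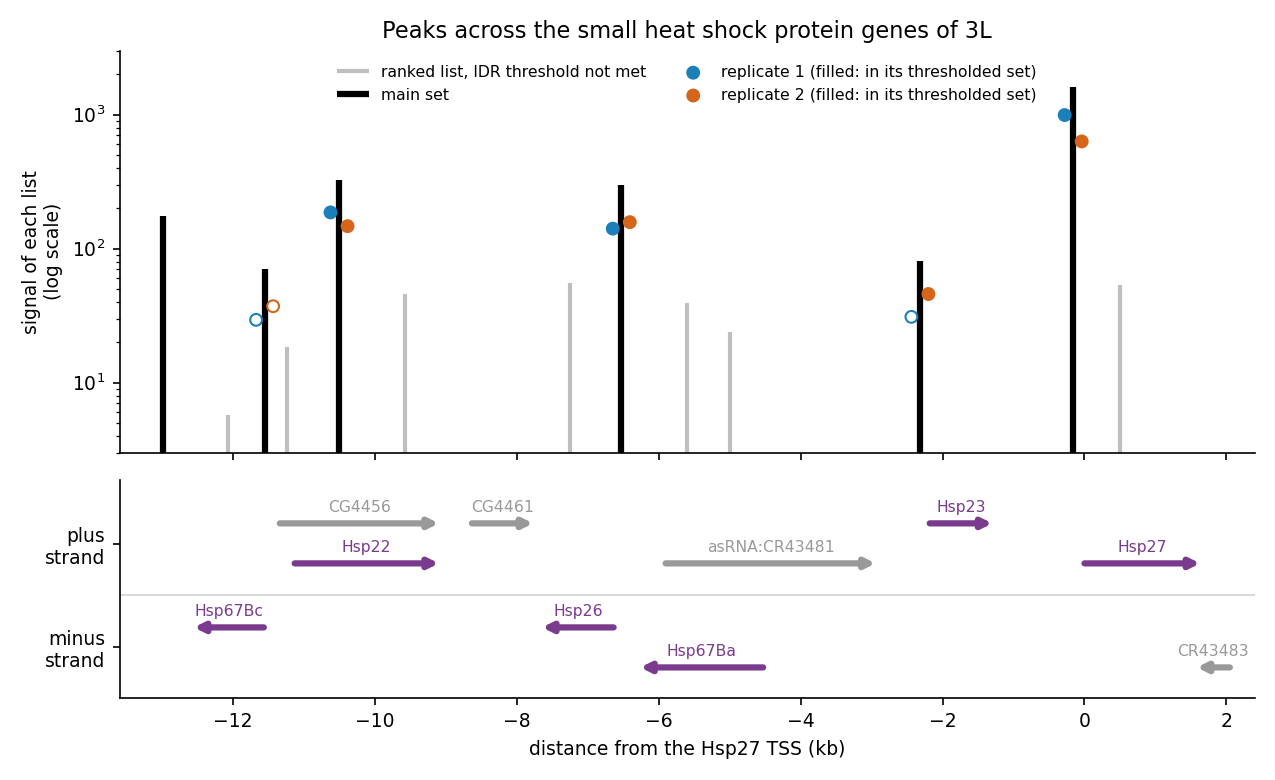
Signal of peaks (upper panel, log scale) against distance from the Hsp27 TSS in kb along the small heat shock gene cluster, with genes as arrows in the direction of transcription (lower panel; purple for members, grey for other genes). Black bars are main-set peaks, grey bars ranked-list peaks at the members that did not meet the IDR threshold, and circles the replicates' own signals; the tallest bar, 1621, is the one before Hsp27, and no black bar falls on Hsp67Ba.

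Hsp83, the fly member of the Hsp90 family of chaperones, had the strongest peaks of the large genes. The first, of signal 805 (rank 279, percentile 97.0), lay between the gene's 2 TSS, 92 bp before the inner one and in the 5′ UTR of the longer transcript (chr3L:3192978-3193268). The replicates gave 307 and 499, a percentile of 95.5 ± 4.53 (SD, n = 2), with summits 10 bp apart. The second, of 485 (percentile 92.3), was in an intron 1065 bp after the inner TSS (chr3L:3194157-3194383), and the replicates gave 255 and 229, a percentile of 91.7 ± 3.09 (SD, n = 2). Each replicate placed the first above the second, but their ranges of percentile over the replicates overlap, 92.3 to 98.7 and 89.5 to 93.9. The nearest other TSS for either was that of CG14965, 633 and 1790 bp away, and a peak at CG14966 lay 618 bp past the end of the gene.

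Hsp68, a heat-inducible relative of Hsp70, had 2 peaks that the replicates did not both pass. The stronger, of 237 (percentile 77.4), lay at -964 bp from its TSS (chr3R:24058180-24058306) and only 13 bp from the TSS of SMC1, a subunit of cohesin. Replicate 2 gave it 114 (percentile 80.2), replicate 1 listed no peak at that summit, and the conservative set left it out. The weaker, of 82.2 (percentile 25.2), lay 73 bp before the Hsp68 TSS (chr3R:24057211-24057554), 904 bp from SMC1, and was in the conservative set. The replicates gave it 38.0 and 44.2, a percentile of 24.1 ± 5.73 (SD, n = 2), with IDR of 0.0780 and 0.0274, so it was in neither replicate's thresholded set. By position, the peak at the Hsp68 promoter was thus the weaker one.

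Hsp60A, the mitochondrial chaperonin that folds imported proteins, had 1 peak near the middle of the main set. Its signal was 136 (percentile 56.5), the replicates gave 81.9 and 58.3, a percentile of 52.3 ± 6.64 (SD, n = 2), and both thresholded sets held it. The summit lay 129 bp before the outer TSS in intergenic DNA (chrX:11108181-11108524), with replicate summits 53 bp apart. It was the most isolated of the 10 peaks, since the nearest other TSS, that of CG42249, was 5316 bp away.

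**Figure D3:**
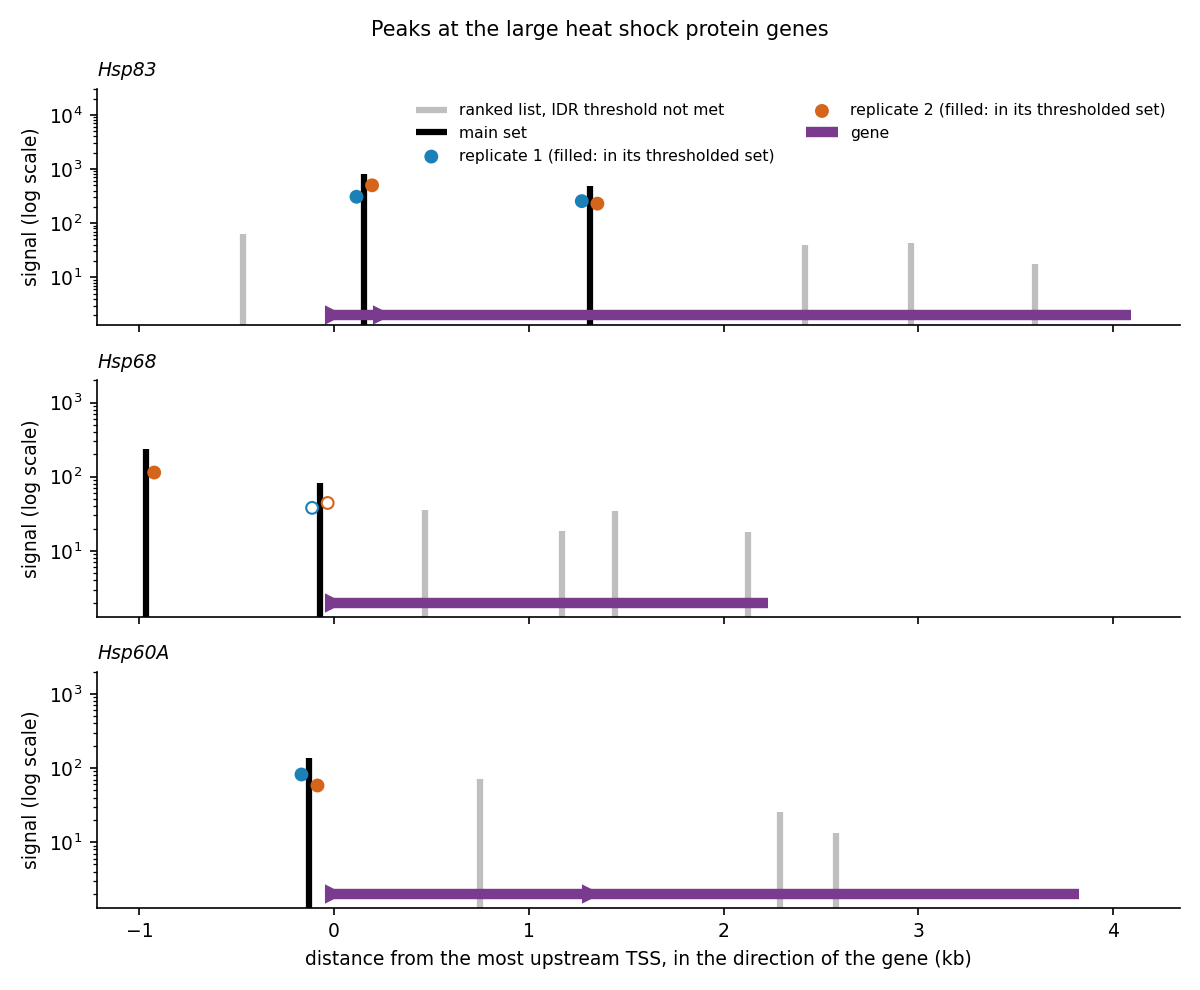
Signal (log scale) of peaks at Hsp83, Hsp68 and Hsp60A against distance from the most upstream TSS in the direction of the gene, in kb; purple bars are the genes with arrowheads at the outermost TSS, black bars main-set peaks, grey bars ranked-list peaks that did not meet the IDR threshold, and circles the replicates' own signals. Hsp83 has its 2 main-set peaks inside the gene, Hsp68 and Hsp60A theirs before it, and the Hsp68 peak at -964 bp has a value in replicate 2 only.

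Small and large genes did not separate by signal. The strongest peaks of the 3 large genes stood at percentiles 94.1 (Hsp83), 61.1 (Hsp68) and 35.9 (Hsp60A) among genes with a peak. Those of the 5 small genes with one ran from 5.45 (Hsp67Bc) and 10.9 (Hsp23) through 70.7 (Hsp26) and 74.2 (Hsp22) to 98.4 (Hsp27), so the small genes held both the highest and the lowest places. The median signal of the strongest peak over all 6003 genes was 182.7; 3 of the 5 small and 2 of the 3 large genes were above it. Hsp68 was above it through the peak 13 bp from the SMC1 TSS alone, which has no value in replicate 1; by its own promoter peak it stood at percentile 11.6 and 1 of the 3 large genes was above the median. All 3 large genes had a peak in the conservative set, against 3 of the 6 small ones and 36.8% of all protein-coding genes. With 1 locus for the small genes, the 2 classes were not compared by a test.

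**Figure D4:**
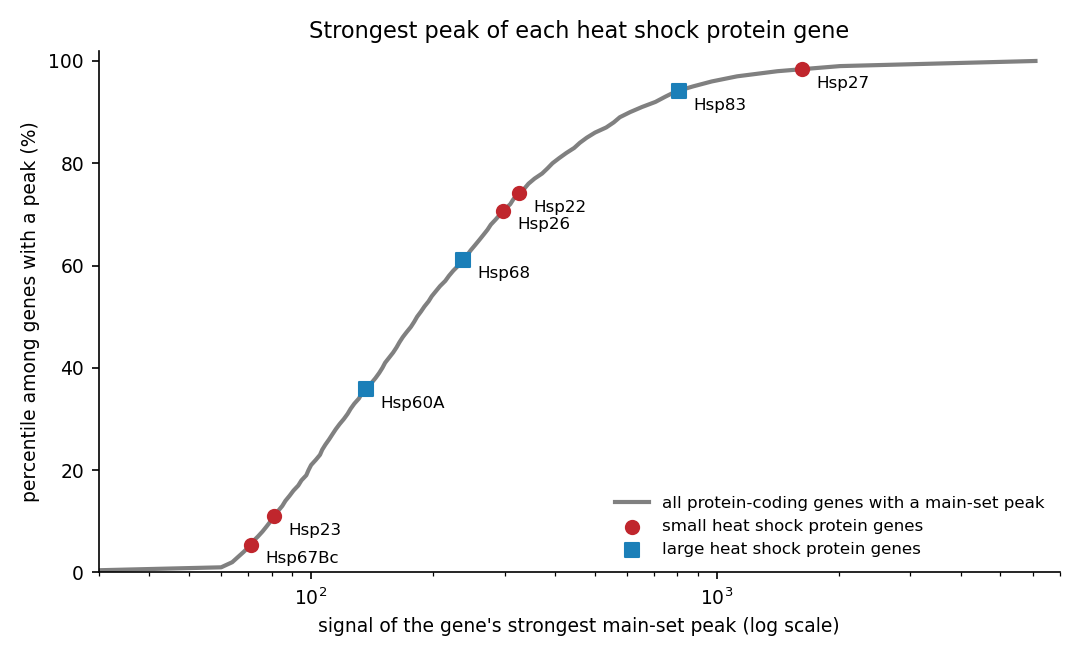
Percentile among the 6003 protein-coding genes with a main-set peak (vertical axis, %) against the signal of the gene's strongest peak (log scale); the grey line is all genes, circles small and squares large heat shock protein genes. Hsp27 and Hsp83 sit at 98.4% and 94.1%, Hsp67Bc and Hsp23 at 5.45% and 10.9%.

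Most of the members carry heat shock elements near the TSS, but their summits were not all close to one. A heat shock element of 2 units, searched on both strands from 250 bases before to 50 after each TSS, was found at 7 of the 9 members, all but Hsp27 and Hsp67Ba, against 19.9% of all protein-coding genes. With 500 bases before the TSS it was found at 8 members, Hsp27 included, against 32.4% of genes. Elements of 3 units, which extend it by a further unit and overlap the shorter ones, were found only at Hsp68 among the members and at 0.566% of all genes. Within 100 bp of the summit, 4 of the 10 peaks held the 2-unit element, against 9.74% of all main-set peaks. These were the promoter peaks of Hsp23, Hsp26, Hsp68 and Hsp83, with the nearest element centred 3.5, 16.5, 9.5 and 27.5 bp from the summit. The other 6, which include the peaks of Hsp27, Hsp22 and Hsp60A, had none.

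The letters TATAAA were searched on both strands in the same window of 250 bases before to 50 after a TSS. They were found at 8 of the 9 members, all but Hsp67Ba, against 51.2% of all genes. Read in the direction of the gene only, they began 35 to 20 bases before a TSS at 7 of 9, against 8.53% of genes. This narrower window was chosen after the positions at the members had been seen. The exceptions were Hsp60A and Hsp67Ba, and in the others they began 27 to 30 bases before. GAGAG was found near a TSS of Hsp22, Hsp23 and Hsp26, 3 of 9 members against 36.2% of genes. CGATA, searched alone, was found at 5 members, Hsp22, Hsp23, Hsp26, Hsp83 and Hsp60A, against 53.0% of genes, and 1 of its matches was 8 bp from the Hsp60A summit. TATCGATA, which contains CGATA and is the element of the factor DREF, was found only before the outer TSS of Hsp83 among the members and at 10.2% of genes.

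No member had a strict X-box, either near a TSS (1.15% of all genes) or within 100 bp of a summit (0.757% of main-set peaks). The X-box arm GGCAAC alone was found only at Hsp27, against 22.2% of genes. It occurred there on either strand, the nearer copy beginning 64 bases before the TSS, and the copies were centred 60.5 and 97.5 bp from the summit, between it and the gene. These matches describe letters in the windows searched and show no bound site.

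**Figure D5:**
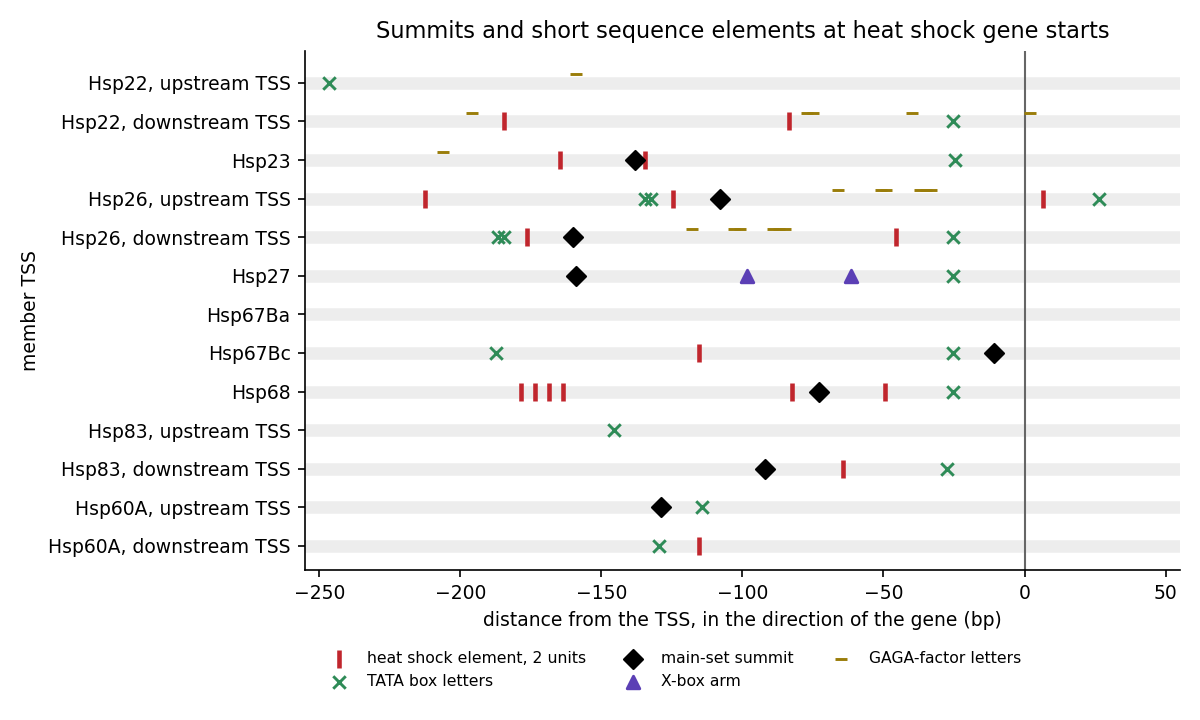
Positions of main-set summits (diamonds) and of short sequence elements (symbols in the key, both strands) from 250 bp before to 50 bp after each TSS of the 9 members, in bp in the direction of the gene. The Hsp22 summits, 440 and 423 bp before its TSS, the outer Hsp68 summit and the second Hsp83 summit fall outside the range. Each element is drawn at its middle. The TATA box letters begin 27 to 30 bp before a TSS in 7 members, and Hsp27 alone has copies of the X-box arm GGCAAC.

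Among 32 other heat shock and chaperone genes, 18 had a main-set peak, with a median percentile of 62.2 for the strongest; by protein-coding genes it was 17 of 31, beside the 43.0% of all genes. Both replicates' thresholded sets held 13 of them, and the share of all genes held by both is not given here. The strongest were at Hsc70-4, the constitutive cytosolic relative of Hsp70, with 371 (percentile 88.1), and at stv, the co-chaperone starvin, with 366 and 7 peaks. CG4456 followed through the peak it shares with Hsp22, then the mitochondrial Hsc70-5 with 291 and Gp93, the Hsp90 relative of the endoplasmic reticulum, with 259. The co-chaperone genes DnaJ-H, DnaJ-60, Droj2, p23, DnaJ-1, Hsp110 and Cdc37 ranged from 213 down to 123. None of these exceeded Hsp27 or the first peak of Hsp83. At CG4456, Hsc70-5, DnaJ-H, DnaJ-60, Droj2 and Cdc37 the strongest summit lay nearer to the TSS of another gene than to the gene's own. Those other genes were Hsp22 (440 bp), CG8531 (135 bp), Sirt1 (220 bp), spag (11 bp), mRpS21 (94 bp) and alpha-Spec (27 bp).

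None of the 6 Hsp70 copies, the main heat-inducible chaperones of the fly, had a main-set peak, beside 43.0% of all protein-coding genes. The ranked list behind the main set held a peak at 1 of the 6, beside 84.4% of all protein-coding genes. The 6 genes are near-identical copies of each other, so reads may not have been placed on single copies, and their values are uncertain. Hsp70Ba had 1 peak in the ranked list, 78 bp before its start, with a signal of 89.0 and an IDR of 0.00469, under the threshold, yet the main set did not list it; replicate 1 listed none there and replicate 2 listed 1. Hsf, the gene of heat shock factor, had a weak peak 604 bp after its TSS (76.2, percentile 19.8). For lncRNA:Hsromega, a heat-induced non-coding RNA, the peak was at -868 bp from its TSS (91.0, percentile 32.6). Neither replicate's thresholded set held a peak at Hsf or lncRNA:Hsromega. The last 3 sets of values were named after they had been seen.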

How the data were processed

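Per the labels, the authors precipitated Rfx-eGFP chromatin from whole embryos in 2 biological replicates, with sonicated fragments of 200 to 800 bp, and the build is dm6. The antibody field names Rfx and the description anti-GFP. The deposited files are peak lists; the aligner and the peak caller were not given in the sources used here. Only the peak lists of the 2 replicates and of both together were used, and a control was not analysed here.

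The deposited columns used are the signal, the authors' enrichment value of unstated scale, and the score, the authors' whole-number form of the IDR. A score of 830 stands for an IDR of 0.01 and 1000 is the highest. The ranked lists also hold the deposited −log10 of the IDR, from which IDR values were computed. In the series-level ranked lists, 16 further per-input columns were not used.

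Of 9250 main-set peaks 3 lay off the arms and were left out. Summits were assigned with the Ensembl annotation, release 115 (BDGP 6.54), whose coordinates of all 9 members equal those of RefSeq. In each replicate a main-set peak took the highest signal of the ranked peaks that hold its summit, ranked among the main-set peaks with such a value (8503 and 8892). The promoter window was 300 bases. Motifs were matched without mismatch; the strict X-box allowed a short spacer. Of 34 names of the wider list, 2 matched no single gene and were left out. Tools were pandas 2.3.3 and numpy 2.4.6 under Python 3.11.15, scipy 1.17.1 for intervals, and matplotlib 3.10.9; the assignment was tested on simulated data.

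With 1 group there is no contrast, so values are descriptions and no test was run; Wilson intervals cover counting error only. The replicates are separate biological replicates per the labels, and the depth of each is unknown. The members, lists, elements and rules were chosen with earlier results of these data known. Named were all 9 members, the gene with the nearest other TSS for each peak, the genes of the small heat shock cluster with a peak at their TSS, and up to 12 genes of the wider list by signal. Results were recomputed with each replicate alone, the conservative set, other distances and assignments, stricter thresholds, other peaks to rank against and other element windows.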

Additional observations from a re-analysis of the deposited data

How the results depend on the processing

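The count of 8 members with a peak was 6 in the conservative set, 5 to 7 with 1 replicate alone, 7 with the top IDR score only (39.9% of all protein-coding genes) and 6 among peaks above the median signal (30.2%). Small genes with a peak fell from 5 to 3 in the conservative set and to 3 above the median signal, and were 3 to 4 with 1 replicate alone; large genes were 2 to 3. The share of all protein-coding genes was 35.3 to 36.5% with 1 replicate alone. Hsp67Bc was lost in each of these stricter settings and Hsp23 in all but replicate 2 alone and the top IDR score; Hsp68 was lost in replicate 1 alone. A window of 2 kb added Hsp67Ba (48.4% of all genes). The members were unchanged with 500 bp (40.3%), TSS only (39.6%), any overlap (44.3%) or the nearest TSS only (31.9%). Of 25 alternative percentiles, each taken in a smaller set of peaks than the main set, 23 were lower. Of the 25, 13 differed by more than 1 SD, with 2 more at Hsp68, lower but without an SD. Hsp27 stayed above 98.9 in each run for it. Its SD was 0.000882, so that small moves at Hsp27 counted as more than 1 SD. Members with a heat shock element numbered 7 of 9 by 2 units, 8 with 500 bases before the TSS (32.4% of genes), 7 with no bases after it (16.9%) and 1 by 3 units. By the Hsp68 promoter peak, an alternative chosen after seeing the data, 1 of 3 large genes was above the median strongest signal, not 2. No paired analysis was possible because the series holds 1 group. The unknown depth and the unstated signal scale limit all values to ranks within a list, and the causes of these changes were not tested.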
